A study of Mus musculus with 16 samples.

Results

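The NF-kB factors and their inhibitors were followed as 10 genes across 6 groups of mouse splenic dendritic cells (DCs). They were chosen by name, with earlier results of these data known. These are the 5 subunit genes Rel, Rela, Relb, Nfkb1 and Nfkb2, with the 5 inhibitors and regulators Nfkbia, Nfkbib, Nfkbie, Tnfaip3 and Bcl3. All 10 were listed among the 17128 genes of the plasmacytoid DC (pDC) table and the 17721 genes of the conventional DC (cDC) table, and all 10 passed the filter on low values that left 11299 and 11411 genes to test.

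The 16 RNA-seq libraries came from sorted spleen DCs of C57BL/6 mice aged 6 to 8 weeks. The WT mice carried the loxP-flanked Trim33 fl/fl alleles without Cre, and the cKO mice carried the same alleles with Itgax-Cre, in which the regulatory sequence of Itgax (the gene of CD11c) drives Cre in CD11c-expressing cells. pDCs were gated as CD11c+ SiglecH+ cells (3 WT and 3 cKO libraries), cDC1s as CD11c+ SiglecH- MHC II+ CD24+ CD172a- cells (2 and 2) and cDC2s as CD11c+ SiglecH- MHC II+ CD24- CD172a+ cells (3 and 3). Each library was described as a biological repeat obtained from several mice, with more mice behind a cKO than behind a WT library, so that the number of mice differed with genotype. Levels are given in TPM (a transcript measure per length that sums to the same total in each library), errors of levels are SDs, and depth was estimated at 18 to 20.2 M reads per library. On a 2000-base transcript 3 reads would give 0.14 to 0.184 TPM, far below the level of any member, and this limit covers counting error only.

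The labels were checked first. Differences were fitted with limma on log2(TPM + 1), and a gene was taken as called where the Benjamini-Hochberg adjusted p was 0.01 or less and the log2 fold change was 0.5 or more in size. Trim33 measured 20.6, 23.8 and 22.3 TPM in WT pDCs and 12.6, 16.5 and 11.7 TPM in cKO pDCs. It measured 15.5 and 18.2 TPM against 7.88 and 7.71 TPM in cDC1s, and 20.6, 18.2 and 17.2 TPM against 7.93, 7.13 and 8.07 TPM in cDC2s. In no subset did the WT and cKO libraries overlap. The fall was called in cDC1s (log2 fold change -1.02, adjusted p = 0.000349) and cDC2s (-1.17, adjusted p = 0.000126) and not in pDCs (-0.68, adjusted p = 0.0301, or 0.0036 with the replicate number as a block). A summed list of 12 cDC1 markers ran from 6735 to 7559 TPM in WT cDC1s and 6024 to 6032 TPM in cKO cDC1s. It ran from 774 to 1119 TPM in cDC2 libraries. In pDC libraries that list ran from 3796 to 4369 TPM, mostly from Irf8, with a mean of 3717 TPM in WT. A list of 12 cDC2 markers ran from 2491 to 2705 TPM in WT cDC2s, 2048 to 2272 TPM in cKO cDC2s and 93.5 to 110 TPM in cDC1s. In pDCs it ran from 2129 to 2453 TPM, so it did not tell pDCs from cDC2s. Summed pDC markers ran from 24114 to 24923 TPM in WT pDCs, 25402 to 26546 TPM in cKO pDCs and 222 to 389 TPM in the cDC libraries. The markers thus told the subsets apart to this extent, but within its own subset each sum did not overlap between WT and cKO. The pDC markers did not overlap between genotypes in cDC1s (222 to 223 TPM in WT, 373 to 379 TPM in cKO) or cDC2s either.

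NF-kB factors are dimers of Rel-family proteins that are held in the cytoplasm by IkB proteins in resting cells. In the canonical route, signals from Toll-like, cytokine and TNF-family receptors activate the IKK complex, IkB is degraded and dimers of RelA, c-Rel and p50 reach the nucleus. In the non-canonical route, p100, the product of Nfkb2, is processed to p52, which pairs with RelB. In DCs these factors drive maturation, costimulatory molecules, cytokines and migration, and several of their inhibitors are themselves induced by NF-kB, which closes a feedback loop.

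Letters of the kappa B consensus, the DNA element that these dimers bind, were searched on both strands in RefSeq promoter windows (GRCm38.p6, a short window around each annotated start), with overlapping matches merged. Of the 8 members with a window, 6 (75.0%) held at least 1 match, as did 2581 (9.55%) of the 27025 genes with a window. Rela and Nfkbib held none of these letters in the window. Relb and Nfkb1 had no window, so they were not searched. Below, 1 stretch per gene is shown, and Nfkb2 and Tnfaip3 held further matches. The 30-base stretches below are shown because they carry the match in members that differed between groups or that are feedback inhibitors; capitals mark the match, and each is written 5′ to 3′ on the strand of its gene. A match is a description of the letters and not a measured binding site.
Nfkbia, chr12:55492657-55492686, minus strand, match 29 bases upstream: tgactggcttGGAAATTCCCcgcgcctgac
Tnfaip3, chr10:19015403-19015432, minus strand, match 12 bases upstream: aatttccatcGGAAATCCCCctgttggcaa
Rel, chr11:23771041-23771070, minus strand, match 92 bases upstream: gtaagcagcGGGAAATCCCCccccctcccc
Nfkb2, chr19:46304689-46304718, plus strand, match 39 bases upstream: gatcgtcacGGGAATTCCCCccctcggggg
Nfkbie, chr17:45555584-45555613, plus strand, match 106 bases upstream: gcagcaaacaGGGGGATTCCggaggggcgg
Bcl3, chr7:19822734-19822763, minus strand, match starting at base 3 of the transcript: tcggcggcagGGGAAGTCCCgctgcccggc

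In cDC1s, Trim33 deletion came with lower Rel and Relb and higher Nfkb1, while Rela did not pass the test. Thus 1 member was called higher, as were 15.8% of all genes tested, and 2 were called lower, as were 6.56%. Rel (gene ID 19696, GRCm38 chr11:23736847-23770969) encodes c-Rel, a transactivating subunit of the canonical route. Its level was 67.3 and 129 TPM in the WT cDC1 libraries and 29.0 and 26.3 TPM in the cKO cDC1 libraries. Both cKO libraries lay below both WT libraries, although the WT libraries themselves differed widely. The cKO mean was 28.1% of the WT mean (log2 fold change -1.72, SE 0.35, limma adjusted p = 0.00358). That call was lost without WT cDC1 replicate 2 (-1.25, adjusted p = 0.0269), without cKO cDC1 replicate 1 (adjusted p = 0.0246) and without cKO cDC1 replicate 2 (adjusted p = 0.0269).

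Relb (gene ID 19698, chr7:19606217-19629438) encodes RelB, the partner of p52 and the subunit best known for its requirement in DC development. Its level was 221 and 131 TPM in WT cDC1s against 49.5 and 65.7 TPM in cKO cDC1s. The groups did not overlap, and the cKO mean was 32.7% of the WT mean (log2 fold change -1.56, SE 0.22, adjusted p = 0.000530). Unlike Rel, Relb passed in all 10 fits that left out 1 cDC library. Relb was higher in WT cDC1 library 1 and Rel in WT cDC1 library 2, so the libraries did not rank alike for these genes.

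Nfkb1 (gene ID 18033, chr3:135584655-135691969) encodes p105 and its product p50, a subunit without a transactivation domain. It went the other way, with 109.5 and 125 TPM in WT cDC1s and 218 and 209 TPM in cKO cDC1s. The cKO mean was 182% of the WT mean (log2 fold change 0.86, SE 0.13, adjusted p = 0.000732), and the call was lost in 1 of the 10 fits, without cKO cDC1 replicate 1 (adjusted p = 0.0111). Nfkb2 (gene ID 18034, chr19:46300994-46312400), which encodes p100, measured 167 and 131 TPM against 116 and 121 TPM (log2 fold change -0.32, SE 0.15, adjusted p = 0.124). Rela (gene ID 19697, chr19:5637442-5648134), which encodes the canonical subunit RelA, measured 108 and 89.0 TPM against 112 and 108 TPM. The Nfkb2 groups did not overlap and those of Rela did, and neither gene passed (Rela log2 fold change 0.16, adjusted p = 0.440).

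Among the 5 inhibitors and regulators none was called in cDC1s, and the feedback inhibitors Nfkbia and Tnfaip3 had the lowest cKO levels relative to WT. Nfkbia (gene ID 18035, chr12:55489409-55492647) encodes IkB-alpha, which retains canonical dimers and is rapidly resynthesised after a signal. It measured 612 and 689 TPM in WT cDC1s and 287 and 334 TPM in cKO cDC1s. Tnfaip3 (gene ID 21929, chr10:19000910-19015410) encodes A20, a ubiquitin-editing enzyme that shuts off signals to IKK, and measured 99.3 and 139.8 TPM against 39.1 and 48.0 TPM. For both genes the groups were far apart, with cKO means at 47.7% and 36.4% of WT. Neither passed in the fit of all 10 cDC libraries (Nfkbia log2 fold change -1.07, SE 0.37, adjusted p = 0.0447; Tnfaip3 -1.42, SE 0.46, adjusted p = 0.0311). That fit shares 1 estimate of spread over the cDC groups, which takes in the high values of WT cDC2 replicate 1 given further on. Without that library Nfkbia passed at an adjusted p of 0.00023 and Tnfaip3 at 0.000439, with the same fold changes. Of the 10 fits that left out 1 cDC library, each gene passed in that 1 alone. Across those fits the log2 fold change ran from -1.18 to -0.96 for Nfkbia and from -1.67 to -1.18 for Tnfaip3.

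The remaining regulators differed less. Bcl3 (gene ID 12051, chr7:19808462-19822824), an atypical IkB that acts in the nucleus with p50 and p52 dimers, measured 34.2 and 27.0 TPM in WT cDC1s and 50.0 and 41.8 TPM in cKO cDC1s (log2 fold change 0.57, SE 0.20, adjusted p = 0.0415). Nfkbib (gene ID 18036, chr7:28758251-28766644), which encodes IkB-beta, measured 123 and 122 TPM against 102 and 107 TPM (-0.23, adjusted p = 0.0992). The groups of both genes were apart without passing. Nfkbie (gene ID 18037, chr17:45555700-45563169), which encodes IkB-epsilon, measured 85.9 and 72.8 TPM against 76.8 and 77.1 TPM, so that the groups overlapped (-0.04, adjusted p = 0.854). Nfkb2, Nfkbib and Bcl3 overlap other annotated genes by 531, 314 and 161 bases, and since the strand setting of the counting was not stated their levels are uncertain to that extent.

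**Figure D1:**
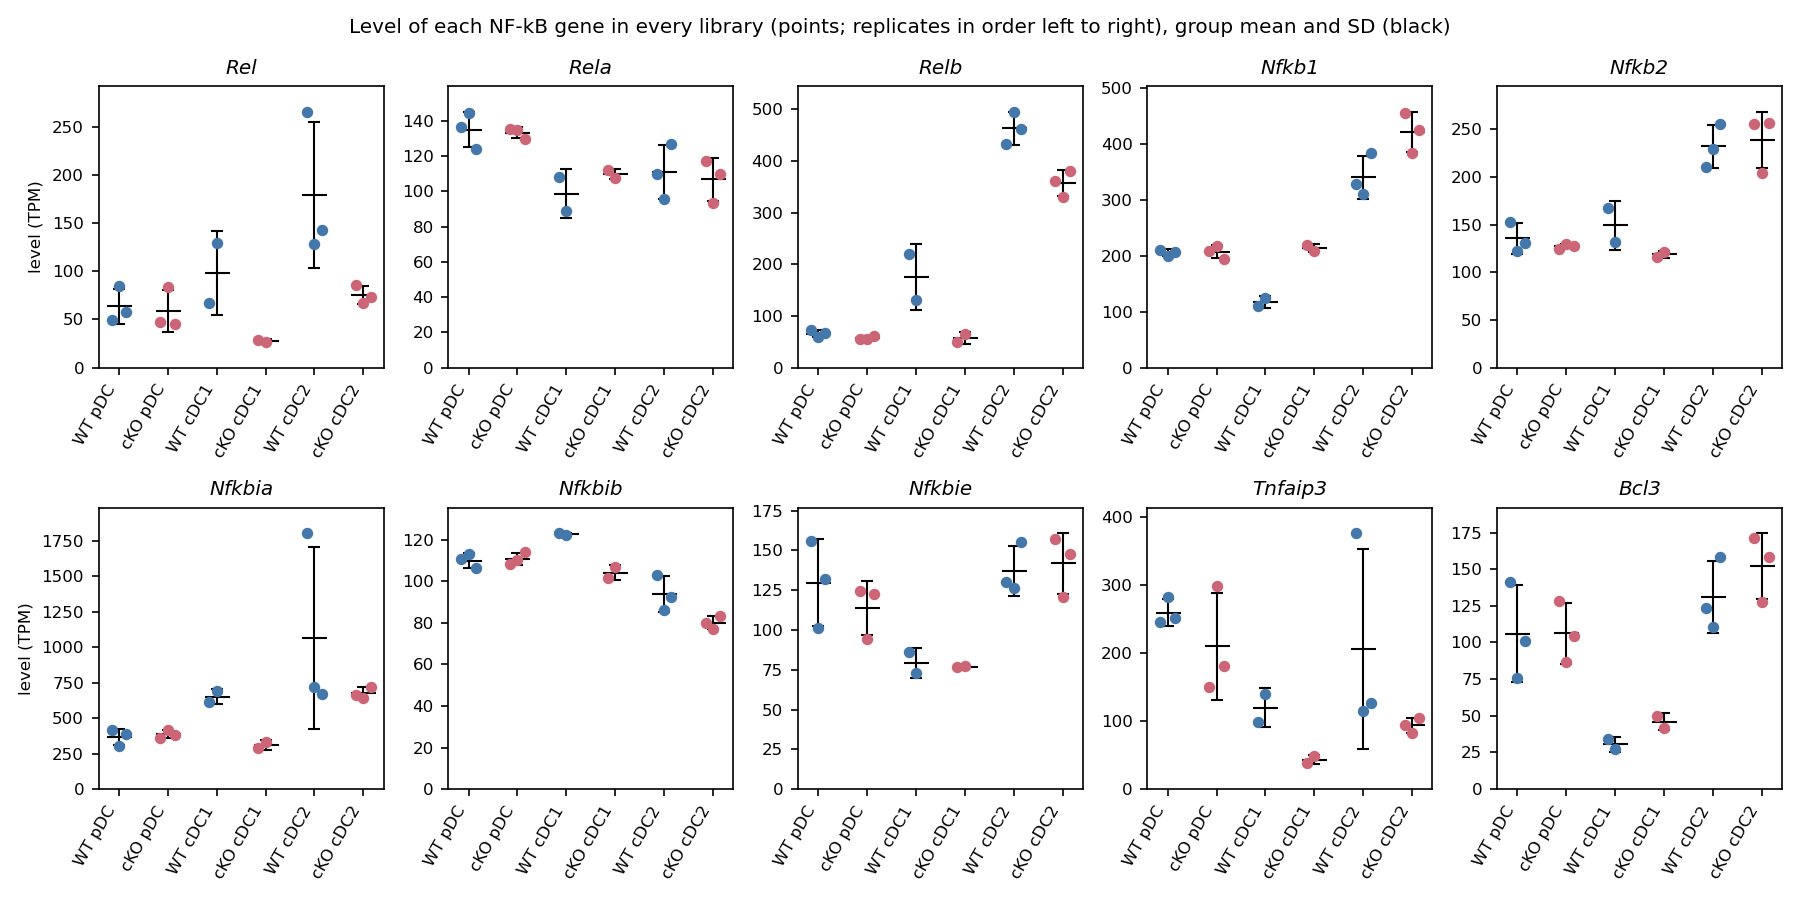
Level in TPM (y axis, from 0, with a separate scale per gene) of the 10 genes in the 6 groups (x axis); blue points are WT and red points cKO libraries, and black lines are the group mean and SD. In cDC1s the Rel and Relb points of cKO lie below those of WT and the Nfkb1 points above, and in WT cDC2s 1 library stands apart for Rel, Nfkbia and Tnfaip3 at 266, 1803 and 377 TPM.

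At an adjusted p of at most 0.05 in either direction 6 members passed in cDC1s, against 39.6% of all genes. The groups did not overlap for 8 members, against 76.2% of all genes. With 2 libraries a side, a lack of overlap was thus the usual state and was not particular to these genes. The median log2 fold change of all genes in cDC1s was 0.17, and relative to it Rel stood at -1.89, Relb at -1.73 and Nfkb1 at 0.69. Rel, Relb and Nfkb1 were called under each of 4 scalings of the values (TPM, FPKM, median-of-ratios and quantile).

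In cDC2s no member was called, where 3.59% of all genes were higher and 3.56% lower by the same limits, and 4 members had an unadjusted p under 0.05, as did 34.1% of all genes. Rel had the smallest adjusted p. Rel measured 266, 128 and 143 TPM in WT cDC2s and 85.7, 67.2 and 72.9 TPM in cKO cDC2s. All 3 cKO libraries lay below all 3 WT libraries, and WT cDC2 library 1 stood far above the other two. The log2 fold change was -1.17 (SE 0.28, adjusted p = 0.0181), and -0.85 (adjusted p = 0.0385) without that library. Tnfaip3 showed the same library apart, with 377, 116 and 126 TPM in WT against 93.9, 83.0 and 105 TPM in cKO. Its log2 fold change was -0.91 (SE 0.37, adjusted p = 0.115), and -0.36 (adjusted p = 0.162) without WT cDC2 replicate 1.

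Nfkbia in cDC2s rested most on that library. It measured 1803, 716 and 668 TPM in WT and 665, 644 and 720.3 TPM in cKO. Apart from library 1 the groups overlapped, and the log2 fold change went from -0.49 (adjusted p = 0.283) to -0.03 (adjusted p = 0.862) without it. Relb was not raised in that library, with 432, 496 and 463 TPM in WT against 362, 329.7 and 380.2 TPM in cKO. The groups did not overlap, and the cKO mean was 77.0% of WT (log2 fold change -0.38, SE 0.18, adjusted p = 0.164). Nfkb1 measured 328, 309.8 and 384 TPM against 456, 384 and 426 TPM, where the highest WT value reached the lowest cKO value (0.31, SE 0.10, adjusted p = 0.0624).

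The other members were close between WT and cKO cDC2s. Rela measured 110.1, 95.9 and 127 TPM against 117, 93.5 and 109.9 TPM, and Nfkb2 211, 229 and 256 TPM against 255, 204 and 256 TPM. Nfkbie ran from 126 to 155 TPM against 120.5 to 157 TPM, and Bcl3 from 111 to 159 TPM against 128 to 171 TPM. All of these overlapped, with log2 fold changes from -0.05 to 0.22. Nfkbib alone of the rest did not overlap, with 103, 86.0 and 92.7 TPM against 80.1, 76.9 and 83.3 TPM (-0.22, adjusted p = 0.0924). At an adjusted p of at most 0.05, 19.9% of all genes and 1 member passed, and 35.5% of all genes and 4 members had groups that did not overlap.

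In pDCs no member was called, where 0.814% of all genes were higher and 0.239% lower, and none had an unadjusted p under 0.05 (20.8% of all genes did). This main fit did not use the pairing of same-numbered pDC libraries, and the fit that did is given below. The WT and cKO libraries overlapped for all 10, while 27.5% of all genes had groups that did not overlap. Rel measured 49.5, 84.3 and 57.5 TPM in WT pDCs and 46.9, 84.0 and 45.5 TPM in cKO pDCs. Library 2 was the highest of both genotypes. Relb measured 73.1, 58.6 and 66.3 TPM against 56.0, 55.6 and 61.9 TPM, and Nfkb1 211, 199.7 and 207 TPM against 209, 218 and 194 TPM. Nfkbie measured 156, 102 and 132 TPM against 125, 94.3 and 123 TPM. The largest difference was that of Tnfaip3, with 245, 283 and 251 TPM against 149.6, 299 and 181 TPM. cKO libraries 1 and 3 lay below WT and cKO library 2 above it (log2 fold change -0.37, SE 0.22, adjusted p = 0.398). Nfkbia ran from 303 to 413 TPM in WT and from 360.2 to 419 TPM in cKO (0.08, adjusted p = 0.721). Rela, Nfkb2, Nfkbib, Nfkbie and Bcl3 had log2 fold changes from -0.18 to 0.03. At an adjusted p of at most 0.05, 4.55% of all genes and no member passed in pDCs. With the replicate number as a block no member was called either, where 260 of all 11299 genes were higher and 75 lower. The unadjusted p was then under 0.05 for 3 members, as for 3478 of all genes. These were Nfkbie (adjusted p = 0.0961), Tnfaip3 (adjusted p = 0.107) and Relb (adjusted p = 0.134), with unchanged fold changes.

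**Figure D2:**
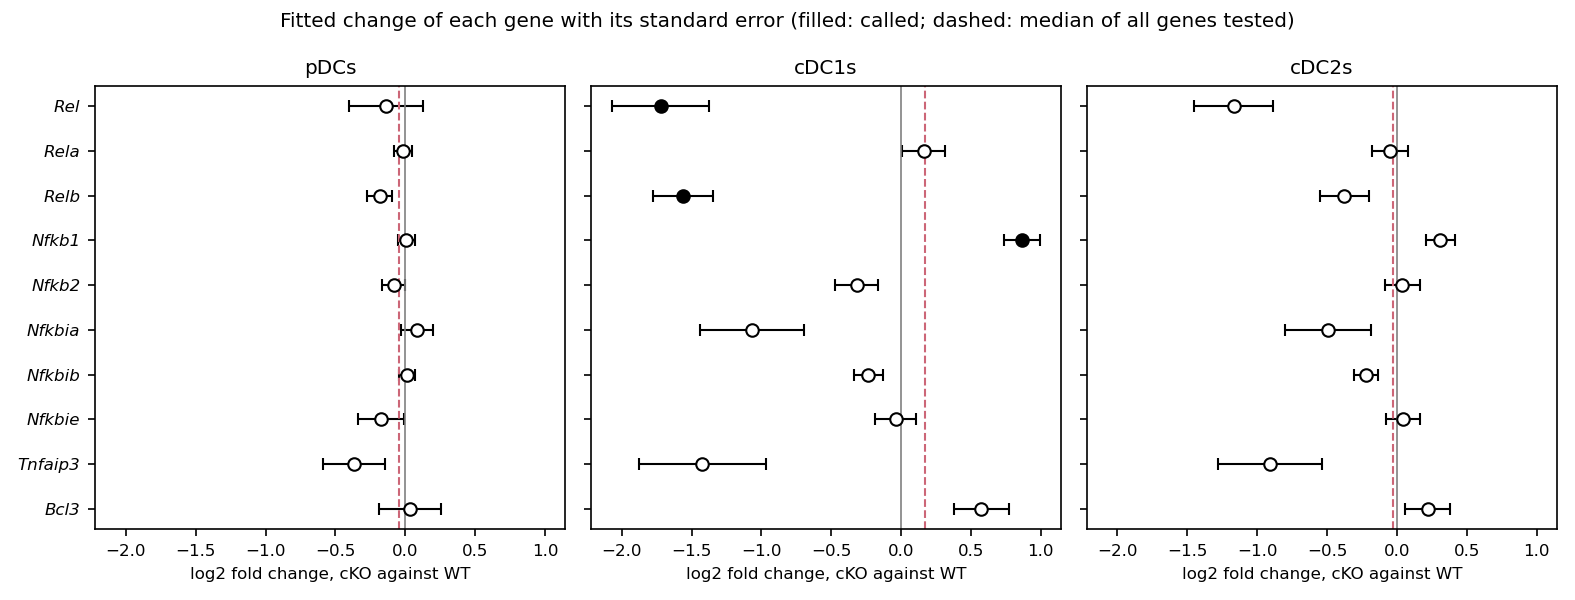
Fitted log2 fold change of cKO against WT (x axis) for the 10 genes (rows) in pDCs, cDC1s and cDC2s; bars are limma standard errors, filled points are called genes and the dashed line is the median of all genes tested. Filled points stand in the cDC1 panel alone, for Rel at -1.72, Relb at -1.56 and Nfkb1 at 0.86.

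Whether the cKO effect differed between cDC1s and cDC2s was tested directly, as the cDC1 effect minus the cDC2 effect. No member was called, where 1.21% of all genes were higher and 1.35% lower, and 2 had an unadjusted p under 0.05, as did 30.7% of all genes. Relb differed by -1.18 on the log2 scale (SE 0.28, adjusted p = 0.0277). Over the 10 fits that left out 1 cDC library the Relb difference ran from -1.56, without WT cDC1 replicate 2, to -0.81. It was called in 1 of these fits. Without WT cDC2 replicate 1 it was -1.14 (adjusted p = 0.0427). Nfkb1 differed by 0.56 (SE 0.17, adjusted p = 0.0565). Rel, called in cDC1s and not in cDC2s, differed by -0.55 (SE 0.45, adjusted p = 0.419), so no difference between the subsets was shown for it. Nfkbia differed by -0.57 (adjusted p = 0.437), or by -1.03 (adjusted p = 0.0058, called) without WT cDC2 replicate 1, and Tnfaip3 by -0.52 (adjusted p = 0.571), or by -1.06 (adjusted p = 0.0273) without it. At an adjusted p of at most 0.05, 11.3% of all genes and 1 member, Relb, passed in this contrast. The cDC contrasts share libraries, so their values are given side by side and are not counted as separate evidence.

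The WT subsets also differed in these genes. Comparing WT cDC1s with WT cDC2s, 5 members were lower in cDC1s and none higher, where 20.8% of all genes were called lower and 10.9% higher. Bcl3 averaged 30.6 ± 5.10 TPM in cDC1s and 131 ± 24.8 TPM in cDC2s, 4.28 times as much (log2 fold change -2.05, SE 0.18, adjusted p = 6.88e-06). Nfkb1 averaged 117 ± 10.7 TPM and 341 ± 38.6 TPM (-1.53, SE 0.12, adjusted p = 2.46e-06), and Relb 176 ± 63.7 TPM and 464 ± 31.7 TPM (-1.44, SE 0.20, adjusted p = 0.000183). Nfkbie was lower by 0.78 on the log2 scale (adjusted p = 0.000907) and Nfkb2 by 0.64 (adjusted p = 0.00362). The calls of Nfkb2 and Nfkbie were lost without WT cDC1 replicate 2 (adjusted p = 0.0461 and 0.0129), and that of Nfkb2 under median-of-ratios scaling, where its log2 fold change was -0.44.

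The other 5 members did not pass between the WT cDC subsets. Nfkbib was higher in cDC1s by 0.39 on the log2 scale (adjusted p = 0.0069), which is under the fold limit of 0.5, and it was called under median-of-ratios scaling at 0.58. Rel stood at -0.85 (adjusted p = 0.0469), Tnfaip3 at -0.58 (adjusted p = 0.274) and Nfkbia at -0.55 (adjusted p = 0.208). Without WT cDC2 replicate 1 these were -0.53, -0.04 and -0.09. Rela had the smallest difference, at 98.7 ± 13.7 TPM in WT cDC1s and 111 ± 15.4 TPM in WT cDC2s (-0.16, adjusted p = 0.365). In all, 7 members had an adjusted p of at most 0.05, against 48.7% of all genes, and 6 had groups that did not overlap, against 62.3%.

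Within each group the order of the 10 levels could be read from TPM, which is per length. Nfkbia was the highest member in all 6 groups, between the 96.4th and the 98.8th percentile of the genes tested, and its libraries did not overlap the next member's in any group. The next place was held by Tnfaip3 in both pDC groups, at 259.7 ± 20.2 TPM in WT and 210.0 ± 79.0 TPM in cKO, where it overlapped Nfkb1 in cKO. It was held by Relb in WT cDC1s, where it overlapped Nfkb2, and in WT cDC2s, and by Nfkb1 in cKO cDC1s and cKO cDC2s. The lowest member was Bcl3 in WT cDC1s and Rel in cKO cDC1s, at 27.6 ± 1.85 TPM and the 55.8th percentile, and each was apart from its neighbour. In the other 4 groups the lowest members were Rel or Relb in pDCs, Nfkbib in WT cDC2s and Rel in cKO cDC2s, and each overlapped its neighbour. pDC and cDC values come from separate tables, so no test was made across them.

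Since subunits act as dimers, each subunit was also expressed as a share of the summed TPM of all 5 subunit genes in its library. Nfkb1 made up 16.3% and 20.6% of that sum in WT cDC1s and 41.6% and 39.4% in cKO cDC1s. Relb made up 32.8% and 21.6% against 9.42% and 12.4%, and Rel 9.99% and 21.4% against 5.52% and 4.97%. The largest share thus passed from Relb, or in WT library 2 from Nfkb2 with Relb and Rel close to it, to Nfkb1. The sum itself was 673 and 605 TPM in WT and 525 and 530.0 TPM in cKO. An exact two-sided permutation test of 2 libraries against 2 cannot give a p under 0.333, and gave 0.333 for the differences of 22.1 percentage points for Nfkb1, -16.3 for Relb and -10.4 for Rel. The Rel difference was -16.1 without WT cDC1 replicate 1 and -4.75 without WT cDC1 replicate 2, and the Relb difference was -10.7 without WT cDC1 replicate 1.

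In cDC2s the shares differed in the same directions. Nfkb1 made up 24.4%, 24.6% and 28.0% in WT and 35.7%, 35.6% and 34.2% in cKO, and Relb 32.1%, 39.4% and 33.7% against 28.4%, 30.6% and 30.5%. Rel made up 19.7%, 10.2% and 10.4% against 6.72%, 6.23% and 5.85%. None of these groups overlapped. The differences were 9.52 percentage points for Nfkb1, -5.25 for Relb and -7.17 for Rel, each with an exact permutation p of 0.1, the smallest that 3 against 3 can give. The Rel difference was -4.03 without WT cDC2 replicate 1, and the Relb difference was -3.09 without WT cDC2 replicate 2. In pDCs Nfkb1 was the largest share in all 6 libraries, between 32.8% and 36.5%, and Relb made up 8.95% to 11.7%. The pDC differences were 1.48 points for Nfkb1, -0.954 for Relb and -0.576 for Rel, with exact permutation p values of 0.3, 0.3 and 0.7.

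**Figure D3:**
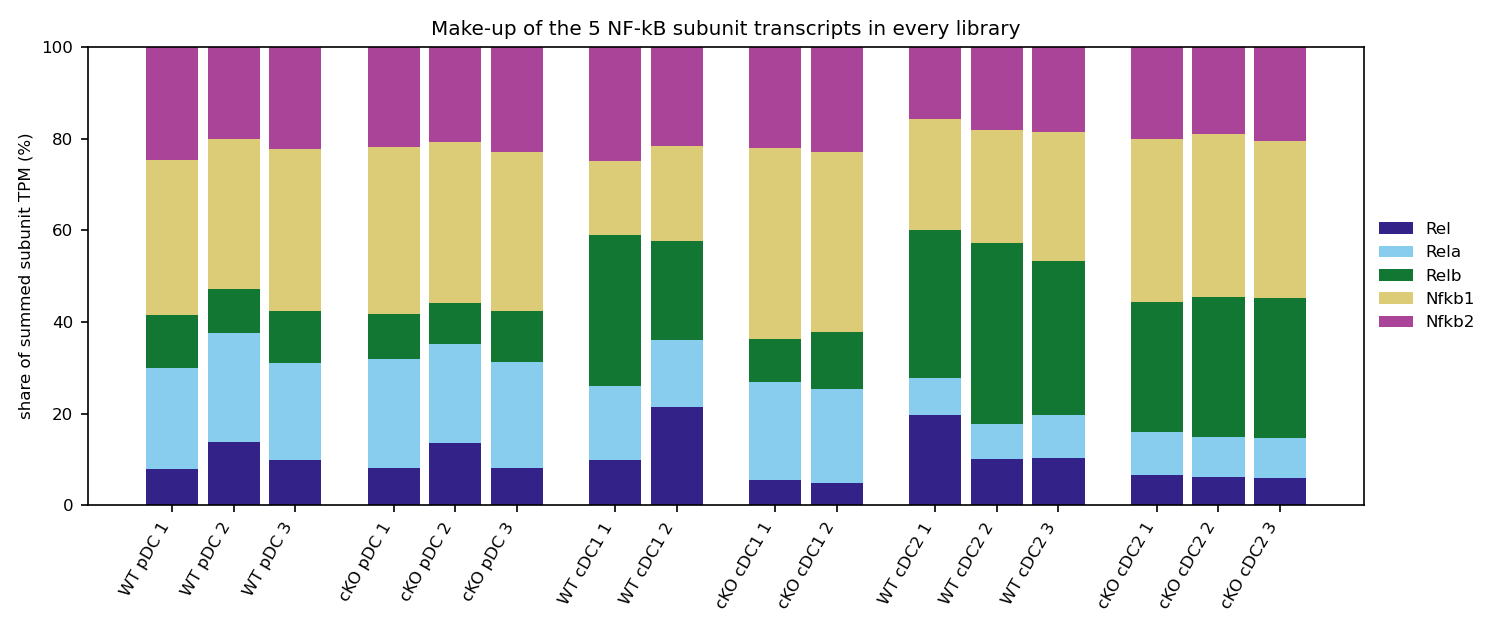
Share of the summed TPM of the 5 subunit genes (y axis, percent) in each of the 16 libraries (x axis), stacked by gene. In the cKO cDC1 libraries the Nfkb1 segment is 41.6% and 39.4% against 16.3% and 20.6% in WT, and the pDC bars are alike between genotypes.

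The Relb level per Nfkb1 level, a plain ratio of TPM, was 2.02 and 1.05 in WT cDC1s and 0.226 and 0.315 in cKO cDC1s. In cDC2s it was 1.32, 1.60 and 1.21 in WT and 0.794, 0.859 and 0.893 in cKO, and in pDCs it lay between 0.256 and 0.347 in all libraries. WT and cKO were apart in both cDC subsets and overlapped in pDCs. The summed level of the 3 IkB genes Nfkbia, Nfkbib and Nfkbie per summed subunit level was 1.22 and 1.46 in WT cDC1s and 0.886 and 0.977 in cKO cDC1s (difference -0.408, exact permutation p = 0.333). In cDC2s it was 1.51, 0.738 and 0.667 against 0.707, 0.780 and 0.764 (-0.222, exact permutation p = 0.9), and the difference was 0.0484 without WT cDC2 replicate 1. Over the 18 exact permutation tests of these shares and of this ratio in the 3 subsets, Benjamini-Hochberg adjusted p values ran from 0.45 to 1.0.

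The genes around the members were read as 5 lists, also chosen with earlier results of these data known. Their counts are therefore a description. Of 30 tested known NF-kB target genes, 17 were lower and none higher in cKO cDC1s. Of all genes tested there, 6.56% were called lower and 15.8% higher. The list median log2 fold change was -1.27 against 0.17 over all genes. Ccr7, the receptor that guides DCs to lymph nodes, averaged 556 ± 195 TPM in WT and 26.1 ± 10.8 TPM in cKO (-4.37, adjusted p = 8.25e-05). Il12b, a subunit of IL-12 and IL-23, averaged 85.3 ± 21.9 TPM and 3.79 ± 1.46 TPM (-4.18, adjusted p = 1.58e-05). Il1b, an inflammatory cytokine, averaged 215 ± 170.1 TPM and 9.05 ± 1.77 TPM (-4.17, adjusted p = 0.000889). All 3 fell beyond the spread of their libraries.

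In cDC2s 4 of the 30 targets were lower and 1 higher, with a median of -0.47 against -0.03 over all genes. Of all genes in cDC2s, 3.56% were called lower and 3.59% higher. Ccr7 fell from 269 ± 95.1 to 69.4 ± 19.9 TPM (-1.91, adjusted p = 0.0044), and Tnf from 144 ± 51.1 to 52.5 ± 2.79 TPM (-1.38, adjusted p = 0.00443). Cd83, a maturation marker, fell from 341 ± 123 to 132.5 ± 18 TPM (-1.29, adjusted p = 0.00778), a call held in 2 of 4 scalings. Cxcl10, a chemokine that interferon also induces, rose from 29.0 ± 3.27 to 50.2 ± 7.23 TPM (0.77, adjusted p = 0.00666). Without WT cDC2 replicate 1 the list held 2 called genes, both lower, and a median of -0.38. The cKO effect differed between cDC1s and cDC2s for 2 targets, Il12b (-4.05) and Ccl22 (-3.45), and for 4 without that library. In that contrast 1.21% of all genes were called higher and 1.35% lower. In pDCs 0 of 23 targets were called by limma and 7 had an unadjusted p under 0.05, where 20.8% of all genes did.

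Upstream of the subunits, among receptors that signal to NF-kB, 2 of 18 were higher and 4 lower in cKO cDC1s. Over all genes 15.8% were called higher and 6.56% lower. Tnfrsf13b, the receptor TACI for BAFF and APRIL, averaged 4.30 ± 2.04 TPM in WT and 19.0 ± 1.39 TPM in cKO (1.97, adjusted p = 0.000127), and Tnfrsf13c, the BAFF receptor that feeds the non-canonical route, 1.61 ± 0.523 TPM and 4.46 ± 0.643 TPM (1.08, adjusted p = 0.00175). Tnfrsf4, which encodes OX40, fell from 43.3 ± 25.2 to 7.86 ± 1.40 TPM (-2.20, adjusted p = 0.00348), Tnfrsf1b from 56.1 ± 16.4 to 22.0 ± 0.113 TPM (-1.28, adjusted p = 0.00112) and Tnfrsf11a, the receptor RANK, from 16.7 ± 2.72 to 7.84 ± 0.141 TPM (-1.0, adjusted p = 0.000574). The list median was -0.19.

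Among 19 receptor adaptors and ubiquitin ligases, 3 were lower in cKO cDC1s and none higher (median -0.03). Over all genes 6.56% were called lower and 15.8% higher. The adaptors called were Traf1, which is itself an NF-kB target (-1.63, adjusted p = 0.000538), and the ligases Birc2 (-1.28, adjusted p = 0.00349) and Birc3 (-1.07, adjusted p = 0.00017). Among 11 genes of the IKK complex and its activating kinases only Map3k8 was lower, from 44.2 ± 2.76 to 20.8 ± 0.827 TPM (-1.05, adjusted p = 0.00683), and the list median was 0.01. Among 13 nuclear IkB and other negative regulators only Nfkbiz, an inducible nuclear IkB, was lower, from 92.5 ± 52.1 to 14.6 ± 1.06 TPM (-2.46, adjusted p = 0.00638), with a list median of -0.18. In lists of 11 and 13 genes, 1 called gene each is near the 6.56% called lower over all genes. The Map3k8 and Nfkbiz calls were both lost without WT cDC1 replicate 2.

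In cKO cDC2s these 4 lists held 4 called genes, where 3.59% of all genes were called higher and 3.56% lower. Malt1, a paracaspase that relays receptor signals to IKK, fell from 192 ± 27.0 to 101 ± 9.74 TPM (-0.91, adjusted p = 0.00115). Tlr7, a receptor for single-stranded RNA, fell from 81.8 ± 5.62 to 41.9 ± 3.55 TPM (-0.95, adjusted p = 0.0008), and Tnfrsf11a from 21.4 ± 0.252 to 13.9 ± 1.68 TPM (-0.60, adjusted p = 0.00665). Il1rap, a co-receptor for IL-1, rose from 1.71 ± 0.323 to 3.71 ± 0.295 TPM (0.80, adjusted p = 0.00463). Without WT cDC2 replicate 1 the receptors held 1 called gene in place of 3. No IKK gene and no negative regulator was called by limma, while 7 of 11 and 9 of 13 had an unadjusted p under 0.05, where 34.1% of all genes did, with medians of -0.21 and -0.23 against -0.03 over all genes. In pDCs the 4 lists held no called gene, and 2 negative regulators, 2 IKK genes, 5 adaptors and 3 receptors had an unadjusted p under 0.05, of 13, 12, 19 and 13 tested, where 20.8% of all genes did.

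**Figure D4:**
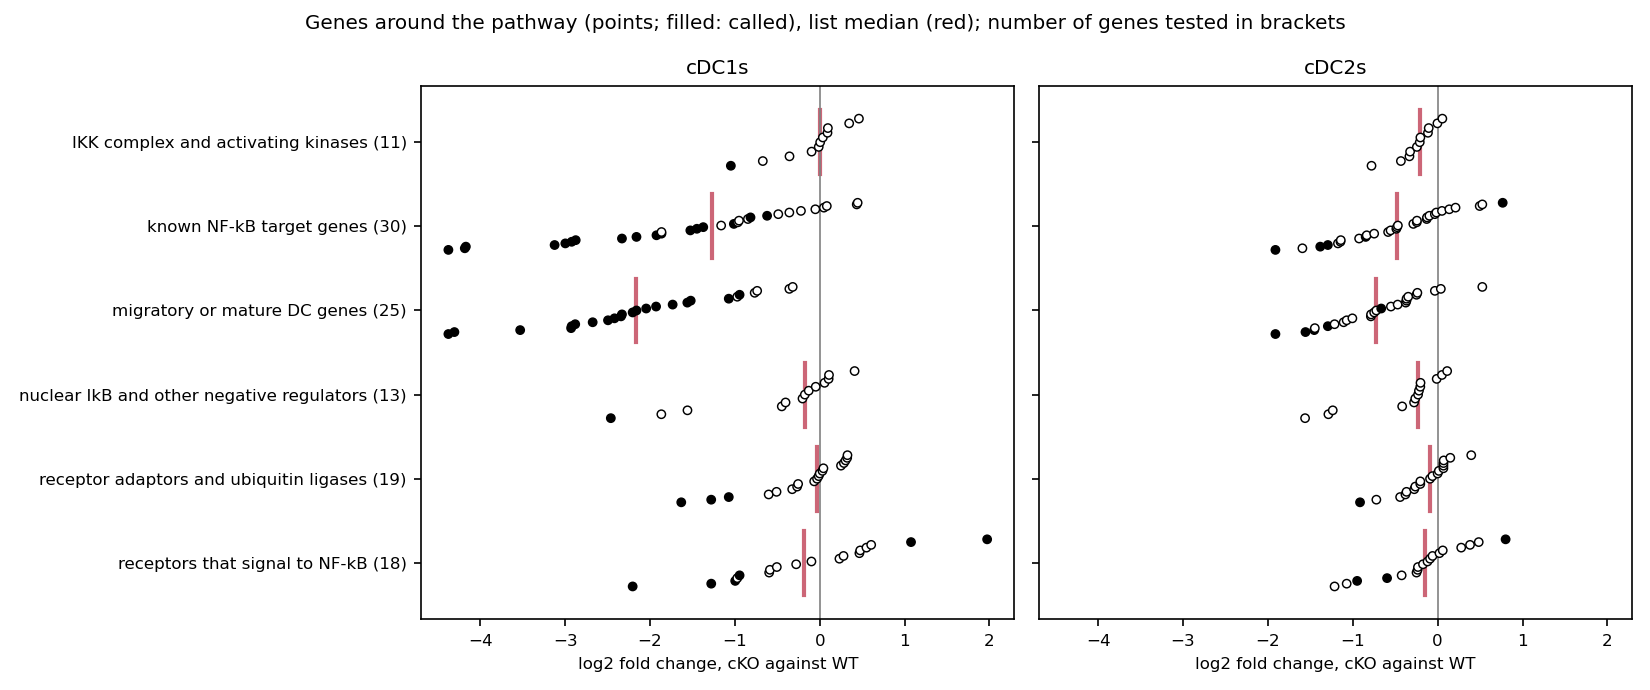
Log2 fold change of cKO against WT (x axis) of each gene tested in 6 lists (rows, number of genes in brackets) in cDC1s and cDC2s; filled points are called genes, red bars list medians and the height of a point within a row has no meaning. The median of the target genes lies at -1.27 in cDC1s and -0.47 in cDC2s, and that of the IKK genes at 0.01 and -0.21.

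Between the WT subsets, receptors of the pathway were called in both directions. Tlr3 and Tlr11, the cDC1-type Toll-like receptors, averaged 192 ± 21.1 and 264 ± 26.3 TPM in cDC1s against 6.65 ± 0.615 and 25.2 ± 2.17 TPM in cDC2s. Tlr7 averaged 4.59 ± 0.976 TPM in cDC1s against 81.8 ± 5.62 TPM in cDC2s, and Tnfrsf13b 4.30 ± 2.04 against 53.0 ± 1.2 TPM. Receptors thus held 3 genes higher and 6 lower in cDC1s, adaptors 1 higher and 4 lower, led by Malt1 (-1.64, adjusted p = 4.96e-06), and negative regulators 5 lower, led by Otulin, a deubiquitinase of linear chains (-0.90, adjusted p = 3.06e-05). Of the target genes 6 were higher in cDC1s and 2 lower. Cxcl9 (3.77) and Il12b (3.70) were the furthest up and Ptgs2 (-4.56) and Ccl3 (-3.65) the furthest down. The genes tested in each list were the same as for cKO against WT in cDC1s. Beside all these list counts, 10.9% of all genes were called higher in WT cDC1s and 20.8% lower, and the adaptors called lower were near that share.

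Several of the members are early-response genes, so immediate-early genes, which are transcribed within minutes of a stimulus or of cell handling, were summed beside them. The sum of 22 such genes was 9725 and 16375 TPM in WT cDC1s and 6259 and 6787 TPM in cKO cDC1s. It was 32636, 12682 and 16001 TPM in WT cDC2s and 9148, 8471 and 9620 TPM in cKO cDC2s, so that it was lower in every cKO than in every WT library of a cDC subset. WT cDC2 library 1, the highest of all, was also the highest for Rel, Nfkbia and Tnfaip3, and WT cDC1 library 2 was higher than library 1 for the same genes. Within the WT groups Relb did not rank with the sum. WT cDC2 library 1 had the lowest Relb of its group, and WT cDC1 library 2 the lower Relb. Between genotypes Relb, like the sum, was lower in every cKO than in every WT library of both cDC subsets. In cDC1s 8 of the 22 were lower and 1, Myc, higher (median -1.29), and in cDC2s 3 were lower (median -1.18). Over all genes 6.56% were called lower and 15.8% higher in cDC1s, and 3.56% lower in cDC2s. In pDCs the immediate-early sum ran from 8542 to 10743 TPM in WT and from 7040 to 9611 TPM in cKO. Whether immediate-early genes have a part in the differences of Rel, Relb, Nfkbia and Tnfaip3 was not tested.

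**Figure D5:**
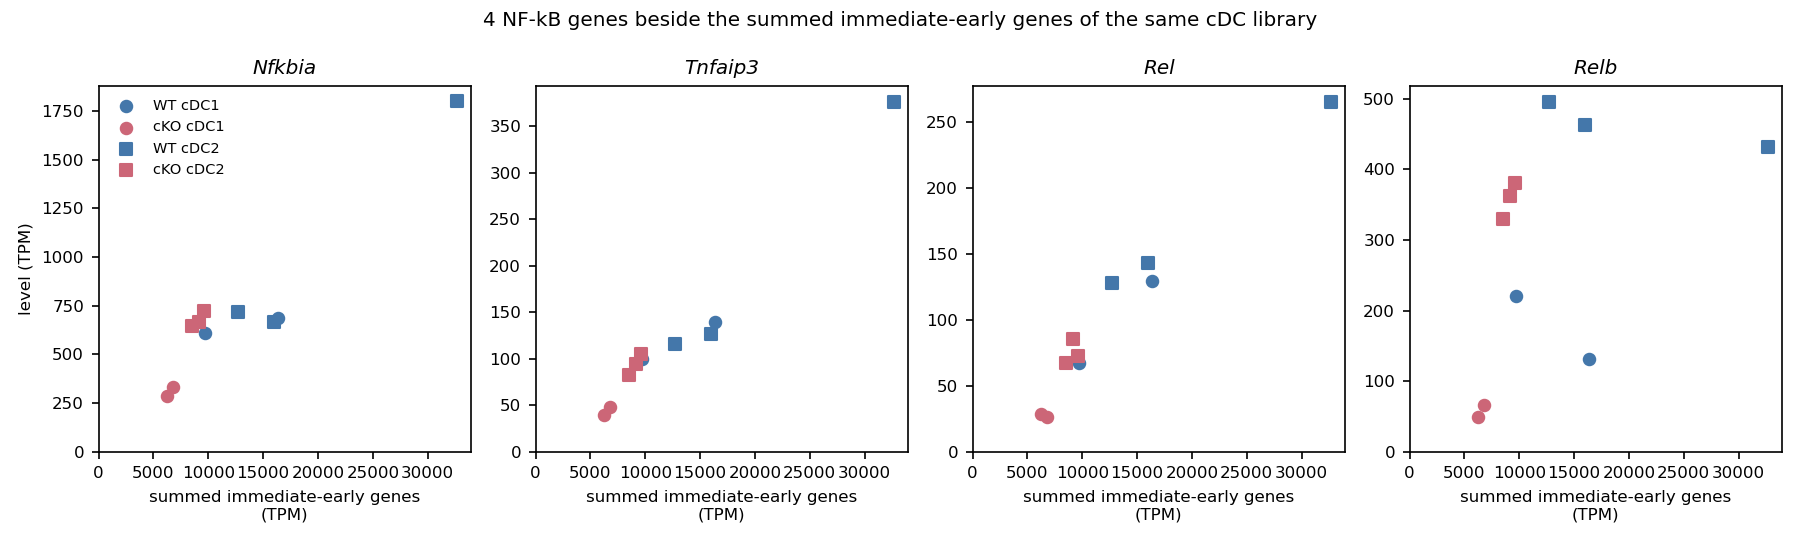
Level in TPM of Nfkbia, Tnfaip3, Rel and Relb (y axes, separate scales) against the summed TPM of 22 immediate-early genes (x axis, TPM) in the 10 cDC libraries; circles are cDC1s, squares cDC2s, blue WT and red cKO. WT cDC2 library 1, at a sum of 32636 TPM, is the highest point for Nfkbia, Tnfaip3 and Rel, while its Relb level of 432 TPM is below those of the other WT cDC2 libraries.

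Genes of migratory or mature DCs were summed in the same way. Their list of 25 holds Relb and Nfkb2 and shares 5 genes with the target list. It summed to 7270 and 4980 TPM in WT cDC1s and to 887 and 1098 TPM in cKO cDC1s, with 20 genes lower and none higher (median -2.16). In cDC2s it summed to 3396, 4618 and 3105 TPM against 1945, 2190 and 2444 TPM, with 5 lower (median -0.72). Over all genes 6.56% were called lower in cDC1s and 3.56% in cDC2s. WT cDC1 library 1 had both the higher sum and the higher Relb, and WT cDC2 library 2 had the highest of both in its group. In bulk samples fewer mature cells and less RNA of these genes per cell cannot be told apart. Summed heat-shock genes (11) went the other way. They ran from 5736 to 5766 TPM in WT and 10874 to 12225 TPM in cKO cDC1s, with 7 called higher. In cDC2s they ran from 4890 to 7994 TPM in WT and 9776 to 12580 TPM in cKO, with 1 called higher. In pDCs, where no member was called, they ran from 4763 to 6894 TPM in WT and 7045 to 11409 TPM in cKO. The higher sum in cKO was thus not particular to the cDC subsets. Over all genes 15.8% were called higher in cDC1s and 3.59% in cDC2s.

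Markers of other cells were summed too. The summed monocyte and macrophage list ran from 909 to 1098 TPM in WT and from 909.7 to 935 TPM in cKO cDC1s, and the neutrophil list from 3.88 to 18.8 TPM and from 25.0 to 44.5 TPM. The monocyte and macrophage sums overlapped and the neutrophil sums did not. In cDC2s the monocyte and macrophage list ran from 2023 to 2627 TPM in WT and from 3384 to 4475 TPM in cKO, so that those groups did not overlap. Lyz2 was its largest gene there, at a mean of 821 TPM in WT and 2125 TPM in cKO, and made up most of that difference. Cd14, its lowest gene in cDC2s, averaged 9.57 and 9.83 TPM. The neutrophil list ran from 32.5 to 61.0 TPM in WT and from 59.6 to 107 TPM in cKO cDC2s. T cell markers summed to 9.85 to 15.8 TPM in WT and 5.09 to 6.78 TPM in cKO cDC1s, and to 17.6 to 27.3 TPM and 10.3 to 14.5 TPM in cDC2s. B cell markers summed to 25.9 to 35.7 TPM and 19.8 to 22.4 TPM in cDC1s, and to 72.7 to 82.2 TPM and 56.2 to 58.7 TPM in cDC2s. Both sums were thus lower in every cKO than in every WT library of a cDC subset, but they did not stand for every gene of a list. Il7r was the largest T cell marker in each cDC group, at 7.01 TPM in WT and 2.44 TPM in cKO cDC1s. In cDC2s Il7r averaged 15.4 and 6.84 TPM. Cd79b, the largest B cell marker in cDC2s, went the other way from its sum, from 33.4 TPM in WT to 40.4 TPM in cKO. NK cell markers summed to at most 10.1 TPM in the cDC libraries. In pDCs the monocyte and macrophage list ran from 5958 to 6578 TPM in WT and from 6778 to 7177 TPM in cKO, the neutrophil list from 13.2 to 32.8 TPM and from 34.6 to 144 TPM, and the T cell list from 197 to 211 TPM and from 156 to 194 TPM, all without overlap. B cell markers in pDCs overlapped, at 67.9 to 96.2 TPM and 85.3 to 154 TPM. Ly6c2, which is also among the pDC markers, made up most of the monocyte and macrophage sum in pDCs. It averaged 5013 TPM in WT and 5635 TPM in cKO. Il7r made up most of the T cell sum there, at 180.7 and 150.5 TPM, while Cd3e averaged 0.113 and 0.133 TPM. Both sums in pDCs thus rested mainly on 1 gene. The part of other cells in the values of the members was not tested.

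The genes whose pattern over the 10 cDC libraries was most like that of each called member were found by Pearson's r on log2(TPM + 1), as a description across libraries that fall into 4 groups. For Rel these were Rasgef1b (r = 0.991), Nfkbiz (0.989) and Nfkbid (0.986). For Relb they were Hap1 (0.995), Rogdi (0.993) and Gbp8 (0.992), and for Nfkb1 Cd300a (0.992), Plxnb2 (0.991) and Cercam (0.990). The nearest genes of Rel thus held 2 inducible nuclear IkB genes, and those of Relb and Nfkb1 held no gene of the pathway lists.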

How the data were processed

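Total RNA of sorted DCs was sequenced by the submitters' provider as single-end 50-base reads on a BGISEQ-500. Per the study's methods and the labels, reads were filtered with SOAPnuke, mapped to a transcript reference with Bowtie2 2.2.5 (mm10 for HISAT2 2.0.4) and quantified with RSEM 1.2.12; the release of the reference is not given in the sources used here. The authors deposited TPM in separate pDC and cDC tables, and FPKM values were deposited for the same libraries. Neither holds counts, so limma stood in for a count model.

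Genes averaging 1 TPM or more over the fitted libraries were fitted as log2(TPM + 1) with limma 3.58.1 (lmFit, eBayes with trend) in R 4.3.3, with 6 pDC libraries in 1 fit and 10 cDC libraries as 4 group means in another. All adjusted p values are limma's, two-sided, with Benjamini-Hochberg adjustment over all genes tested in a contrast; calls needed an adjusted p of 0.01 or less and a log2 fold change of 0.5 or more in size, the limits the study used for DCs. Fold changes on this scale understate low genes. Shares and ratios were compared by exact two-sided permutation tests. Depth was estimated from the steps of the lowest FPKM values. Both scripts were tested on simulated data. Figures and sums were made with Python 3.11.15 and matplotlib 3.10.9.

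The members and lists were chosen with earlier results of these data known. Named are all members, Trim33, of each list and contrast up to 3 called genes with the largest rise and 3 with the largest fall (given in part), and the 3 genes most like each called member. Same-numbered WT and cKO pDC libraries deviated together (r = 0.310, 0.392 and 0.206 across genes), so the numbers were taken to pair them. Those of cDC1s (r = -0.233) and cDC2s (r = -0.249, 0.253 and -0.165) were not taken as pairs. The main pDC fit and the pDC permutation tests did not use the pairing, and the replicate block among the alternatives did. Alternatives were FPKM, median-of-ratios scaling, quantile normalization, a pseudocount of 0.1, no filter on low values, eBayes without trend, an adjusted p limit of 0.05 without a fold limit, a replicate block, a subset's own libraries alone and leaving out each library.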

Additional observations from a re-analysis of the deposited data

How the results depend on the processing

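Of 830 gene-and-comparison values of the 10 members under an alternative, 782 kept their direction and their side of the threshold, 8 no longer passed, 8 newly passed and 32 changed sign; none of those 32 was called. Relb in cDC1s passed under each alternative. The number of members called in cDC1s, 3 in the report, was 5 with the cDC1 libraries alone, 5 with a crossed replicate block in those libraries (chosen after seeing the data), 6 with the adjusted p limit at 0.05, and from 1 to 5 with 1 library left out. Without the filter on low values Rel missed the threshold (adjusted p = 0.0112). In cDC2s 1 member and in the difference between the subsets 1 member passed with the limit at 0.05. With 1 library left out the difference held 0 to 1 called members and the comparison of WT subsets 3 to 5. With the replicate block the members called were 0 in pDCs, 4 in cDC1s (Bcl3 added, adjusted p = 0.00767), 0 in cDC2s, 0 in the difference and 5 between WT subsets, and over all genes in pDCs 260 were higher and 75 lower in place of 92 and 27. Median-of-ratios scaling brought the median of all genes in cDC1s from 0.17 to 0.02 and the calls from 1806 higher and 749 lower to 1067 and 1067, the difference from 138 and 154 to 100 and 280, and the WT subsets from 1241 and 2371 to 1815 and 1719.

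Sign changes were those of values near 0. Rela turned to 0.0131 with FPKM and 0.0224 with median-of-ratios scaling in pDCs, and with that scaling to -0.0112 in cDC1s (-0.0003 with quantile normalization), 0.0012 in cDC2s, -0.0125 in the difference and 0.031 between WT subsets. With 1 library left out, log2 fold changes in pDCs ran from -0.42 to 0.0798 for Rel, -0.0748 to 0.033 for Rela, -0.0291 to 0.0522 for Nfkb1, -0.15 to 0.0065 for Nfkb2, -0.0481 to 0.18 for Nfkbia, -0.0127 to 0.0325 for Nfkbib and -0.18 to 0.26 for Bcl3. In cDC1s Nfkbie ran from -0.16 to 0.0779. In cDC2s Nfkb2 ran from -0.0287 to 0.15, Nfkbie from -0.0328 to 0.16 and Rela from -0.15 to 0.05. In the difference Nfkbib ran from -0.0795 to 0.0497 and Nfkbie from -0.20 to 0.0335. The cause of these changes was not tested. In cDC1s the negative regulators held 2 called genes with median-of-ratios scaling or quantile normalization and 3 without WT cDC2 replicate 1, and the IKK list 2 with FPKM and 3 with either of those scalings, in place of 1. List counts without a named library were also added after seeing the data. With 2 libraries a group in cDC1s the spread is estimated largely from other groups.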
